A study of Homo sapiens with 6 samples.

Results

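The 10 genes described here are NKD1, RNF43, ZNRF3, AXIN2, LGR4, LGR5, SP5, NOTUM, TCF7 and LEF1. These are genes that Wnt signalling switches on or that feed back on it, except LGR4, which is included as a receptor gene of the pathway. They were chosen by name, 10 of the 16779 genes listed in the deposited tables, and all 10 had a row in each of the 6 libraries. The choice was made with their values in this comparison already known, so those values are given as a description and without a test. The 6 libraries carry the label A549, the name of a line of human lung cancer cells (adenocarcinoma). Cells of the genotype RN7SK knockout gave 3 of them, and control cells of the genotype WT gave the other 3. RN7SK encodes 7SK, the small nuclear RNA that holds the elongation kinase P-TEFb inactive. The labels name no treatment and no clone, and do not say whether the replicates came from separate cultures, so p-values measure only the spread between these libraries, which may be technical.

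In Wnt signalling, a secreted Wnt protein binds a Frizzled receptor and the co-receptors LRP5 or LRP6, and the complex that marks beta-catenin for destruction is held back. Beta-catenin then enters the nucleus and acts with DNA-binding factors of the TCF and LEF family. Several of the genes this turns on code for inhibitors of the same pathway, so their mRNA levels are widely used as a readout of it. R-spondins, which bind the receptors LGR4, LGR5 and LGR6, keep the inhibitors RNF43 and ZNRF3 from removing Frizzled from the cell surface.

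Total counts per library were between 16018260 and 19357144, and 85% of the 12929 tested genes were called at an edgeR quasi-likelihood adjusted p under 0.05, of which 5428 were higher and 5564 lower in the libraries labelled knockout. RN7SK had 0 rows, and the labels could not be checked against it. CDKN2A, which A549 cells are known to lack, had 0, 1 and 2 counts in knockout replicates 1 to 3 but 963, 1005 and 923 counts in control replicates 1 to 3. CDKN2B, set for the same check, had 0, 1 and 0 counts in knockout and 216, 241 and 238 counts in control replicates. The 3 control libraries therefore go against the cell line in their label, and as they are all of the control libraries, no result could be computed without them. MTAP, also set for this check as a gene that A549 cells lack, had 240, 201 and 233 counts in knockout and 839, 897 and 835 counts in control replicates. By this gene the knockout libraries do not cleanly match their label either. Groups are named by their labels, and a difference between cells of different origin cannot be told apart from one due to RN7SK. Rose and fell here mean higher and lower in the libraries labelled knockout than in those labelled control. Of 7 epithelial markers, KRT8 and KRT18 were high in both groups (means of 2964 and 1605 CPM in the libraries labelled knockout, 1543 and 1323 CPM in those labelled control), while EPCAM had 6 to 12 counts and KRT19 at most 2 counts in a library. Of the 5 tested, 4 rose and 1 fell, and the summed level of all 7 was 5947 to 6058 CPM in knockout and 3288 to 3504 CPM in control libraries. Of 9 alveolar and airway markers 7 had a row, with a summed level of 2.09 to 2.37 CPM in knockout and 0.576 to 0.888 CPM in control libraries, and SFTPB was at 0 in all. The summed level of 5 endothelial markers was 3.71 to 4.55 CPM in knockout and 109 to 114 CPM in control libraries, with VWF at 0 in the control libraries. Of these 5 markers 2 were tested, and both fell. For 6 fibroblast markers it was 12.4 to 14.5 CPM in knockout and 3.56 to 4.55 CPM in control libraries, with COL1A2 and DCN at 0 in the control libraries. For 5 haematopoietic markers it was 6.89 to 8.3 CPM in knockout and 1.78 to 2.38 CPM in control libraries, with CD3E at 0 in all. For 6 hepatocyte markers it was 10.6 to 11.5 CPM in knockout and 9.34 to 10.5 CPM in control libraries, with APOB at 0 in all. The part of these markers in the results below was not tested.

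The 10 genes did not move as a block. In the libraries labelled knockout, NKD1, RNF43, ZNRF3, AXIN2, LGR5, SP5 and TCF7 were higher and LGR4, NOTUM and LEF1 were lower, each with no overlap between the 3 knockout and the 3 control libraries. Among all tested genes, 85.6% had no overlap, 42.4% being higher and 43.2% lower. SP5 had too few counts to pass the filter on low values. The other 9 were fitted, and all 9 were past the edgeR threshold, 6 higher and 3 lower, against 42% higher and 43% lower of all tested genes. As this comparison was used to choose the genes, nothing is read from these counts. Levels below are in CPM, read counts relative to library size with scaling factors from the trimmed mean of M values (TMM), and each fold is knockout over control. In bulk RNA, more cells that express a gene and more of its RNA per cell cannot be told apart.

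**Figure D1:**
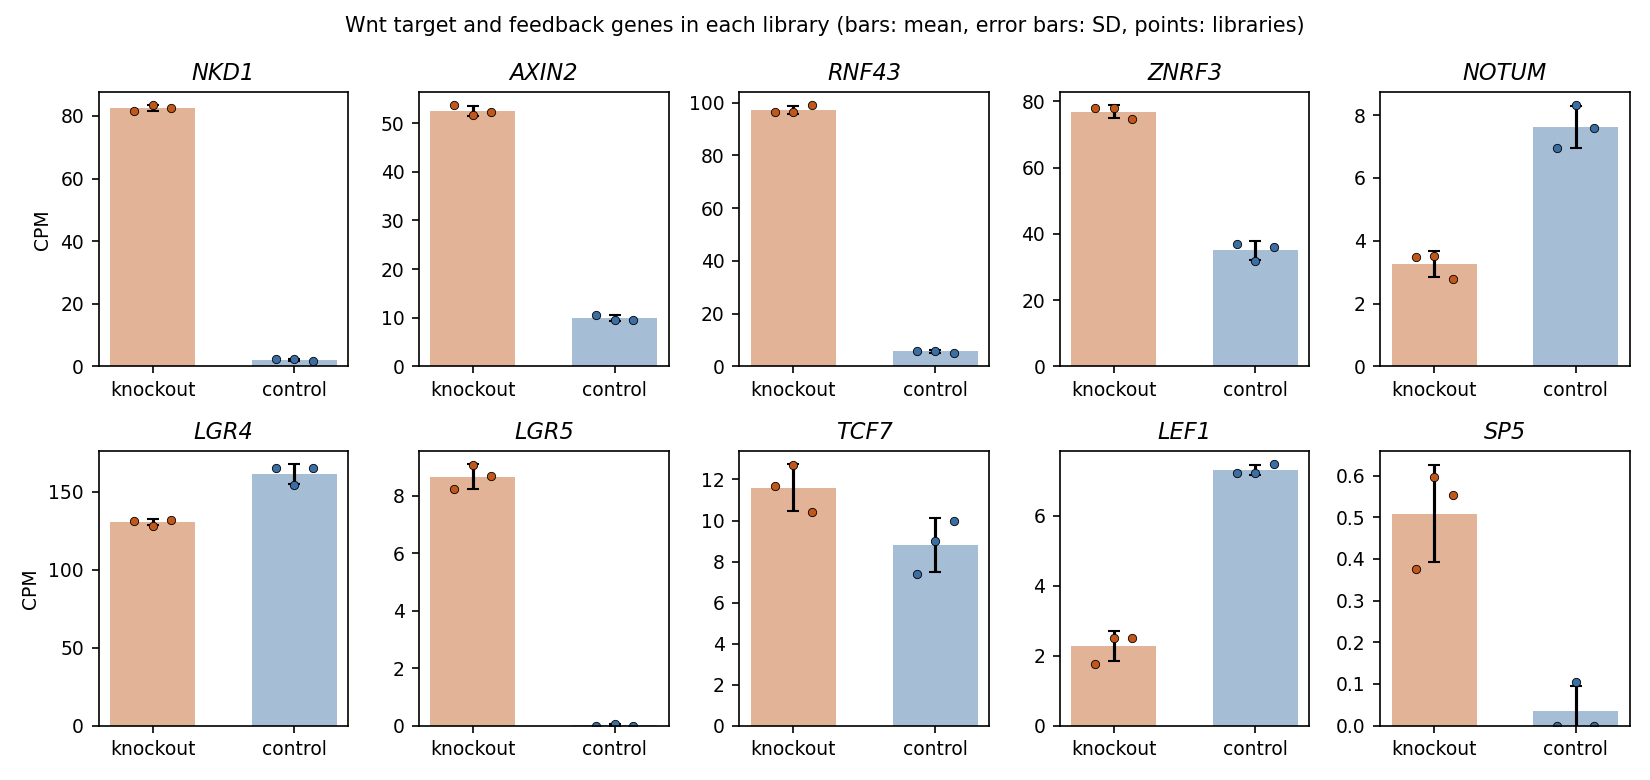
CPM of the 10 genes in 3 libraries labelled knockout (left bars) and 3 labelled control (right bars), with the mean (bar), the SD (error bar) and each library (point). The vertical axis differs between panels and starts at 0. NKD1 averaged 82.5 CPM in knockout and 2.13 CPM in control libraries, whereas LEF1 averaged 2.27 CPM in knockout and 7.31 CPM in control libraries.

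NKD1 (chromosome 16, 50548396 to 50649249, GRCh38) encodes a protein that binds Dishevelled and dampens Wnt signalling. It had 81.5, 83.4 and 82.6 CPM in the libraries labelled knockout and 2.38, 2.3 and 1.72 CPM in those labelled control. The knockout libraries were close to each other and all far above the control libraries. The fitted log2 fold change was 5.27 ± 0.0944 (SE), a 38.6-fold difference that placed NKD1 at rank 79 from the highest of the 12929 tested genes. On log2(FPKM + 0.1) the log2 fold change was 4.52 and on log2(FPKM + 1) it was 2.36, scales that shrink the change of a gene with a low level.

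AXIN2 (chromosome 17, 65528563 to 65561648), the inducible scaffold of the destruction complex and a widely used Wnt target gene, had 53.7, 51.7 and 52.2 CPM in knockout libraries and 10.6, 9.53 and 9.61 CPM in control libraries. The spread within each group was small beside the gap between them. Its log2 fold change was 2.40 ± 0.0757 (SE), or 5.29-fold.

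RNF43 (chromosome 17, 58352500 to 58417534) and ZNRF3 (chromosome 22, 28883572 to 29057488) encode related membrane ubiquitin ligases that remove Frizzled from the cell surface. RNF43 had 96.4, 96.3 and 99.1 CPM in knockout libraries and 5.89, 6.02 and 5.12 CPM in control libraries, a log2 fold change of 4.10 ± 0.0764 (SE) and rank 177 from the highest. On log2(FPKM + 1) it was 3.0. ZNRF3 had 77.9, 78.1 and 74.6 CPM in knockout libraries and 37, 31.8 and 36.1 CPM in control libraries, a log2 fold change of 1.14 ± 0.0615. Both ligases were thus higher in every knockout library than in any control library, RNF43 by 17.1-fold and ZNRF3 by 2.2-fold.

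NOTUM (chromosome 17, 81952507 to 81961187) encodes a secreted enzyme that inactivates Wnt proteins by removing their lipid. Unlike the inhibitors above, it had 3.49, 3.52 and 2.77 CPM in knockout libraries and 6.96, 8.32 and 7.58 CPM in control libraries. The log2 fold change was -1.22 ± 0.154 (SE), and every knockout library was below every control library.

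The R-spondin receptors LGR4 and LGR5 differed in opposite directions. LGR5 (chromosome 12, 71439129 to 71586310), a Wnt target known as a marker of intestinal stem cells, had 153, 152 and 141 counts in knockout libraries and 0, 1 and 0 counts in control libraries. These are 8.22, 9.08 and 8.67 CPM in knockout and 0, 0.0523 and 0 CPM in control libraries. The gene was close to undetected in the control libraries, and the summed counts gave a scaled ratio of knockout to control of 491 (95% exact counting interval 87.6 to 19418, which covers counting error only). The fitted log2 fold change of 8.46 rests on 1 control count: without control replicate 2, which holds it, no control count is left. Set against a floor of 3 counts over the remaining control libraries, LGR5 was 108-fold higher. Without that floor, the lower end of the 95% exact counting interval was 87.9. The low control level also sets the value on other scales, with 4.25 on log2(FPKM + 0.1) and 1.52 on log2(FPKM + 1). LGR4 (chromosome 11, 27365961 to 27472790) had 131, 128 and 132 CPM in knockout libraries and 165, 154 and 165 CPM in control libraries, a log2 fold change of -0.31 ± 0.0463 (SE). LGR4 was abundant in both groups and 1.24-fold lower in the knockout libraries.

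Markers of the intestinal epithelium were read beside LGR5. Of 7 such markers 3 passed the filter, of which 2 rose and 1 fell, and their summed level was 21.9 to 24.2 CPM in knockout and 32.4 to 36.3 CPM in control libraries. OLFM4, another marker of intestinal stem cells, was at 0 in the knockout libraries, but not in all control libraries. CDX2, the intestinal transcription factor gene, had 2, 2 and 0 counts in knockout and 2, 2 and 3 counts in control libraries and was not tested. These 2 genes do not stand for the list, whose tested markers went both ways.

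TCF7 (chromosome 5, 134108218 to 134148210) and LEF1 (chromosome 4, 108047548 to 108168932) encode DNA-binding partners of beta-catenin and are also targets of the pathway. TCF7 had 11.7, 12.7 and 10.4 CPM in knockout libraries and 7.4, 9 and 10 CPM in control libraries. The lowest knockout library was just above the highest control library, and the log2 fold change was 0.39 ± 0.12 (SE). LEF1 had 1.77, 2.51 and 2.52 CPM in knockout libraries and 7.23, 7.22 and 7.47 CPM in control libraries, well apart, with a log2 fold change of -1.70 ± 0.169. For both genes the deposited FPKM used different gene lengths in the 2 groups: the recovered length of TCF7 was 14301 bases in the knockout and 16695 in the control tables, and that of LEF1 was 2740 bases in the knockout and 4128 in the control tables. Per length, LEF1 averaged 0.822 ± 0.157 FPKM in knockout and 1.72 ± 0.0299 FPKM in control libraries (SD, n = 3 each), a ratio of 0.476 against 0.31 in CPM. TCF7 had a ratio of 1.56 in FPKM and 1.32 in CPM. The directions were the same on both scales.

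SP5 (chromosome 2, 170715337 to 170718078) encodes a zinc finger transcription factor that is a direct Wnt target and represses other targets. It had 7, 10 and 9 counts in knockout libraries and 0, 2 and 0 counts in control libraries. At this depth it was near the limit of detection in both groups, with means of 0.509 ± 0.117 CPM in knockout and 0.0349 ± 0.0604 CPM in control libraries (SD, n = 3 each). The scaled ratio of the summed counts, 26 in knockout and 2 in control libraries, was 14.3 (95% exact counting interval 3.58 to 124, which covers counting error only). Both control counts are in control replicate 2. Without that library SP5 was 6.32-fold higher against the same floor of 3 counts. Without the floor, the lower end of the 95% exact counting interval was 4.79.

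TCF and LEF proteins are known to bind DNA that reads CTTTG followed by a pair of letters that are each A or T. RefSeq windows (GRCh38.p14), each running from 250 bases before to 50 bases after an annotated start site, were searched for the 4 words this allows on both strands. Windows were matched by symbol for 5 of the 10 genes: RNF43, LGR4, SP5, TCF7 and LEF1. Of their 7 windows, 3 lie at the start of the gene span given above, those of SP5 and LGR4 and 1 of RNF43. The other 4 lie at start sites inside the gene span, 2631 bases in for LEF1, 7395 and 15400 bases in for TCF7 and 14813 bases in for RNF43. The outer starts of LEF1 and TCF7 were not searched. The SP5 window held 3 matches, at 148, 109 and 84 bases before the start, and no pair of them overlapped. A match stood in 13.8% of all 35116 windows and 3 or more in 0.179%. The windows of LGR4 and RNF43 and the inner window of LEF1 held 0, and of the 2 inner TCF7 windows 1 held a match. A match describes the letters only. The 3 windows at the start of the gene span, of SP5 and RNF43, which were higher in the libraries labelled knockout, and of LGR4, which was lower, are given 5′ to 3′ in the direction of the gene, with the matches in capitals.
SP5, chr2:170715087-170715386, plus strand: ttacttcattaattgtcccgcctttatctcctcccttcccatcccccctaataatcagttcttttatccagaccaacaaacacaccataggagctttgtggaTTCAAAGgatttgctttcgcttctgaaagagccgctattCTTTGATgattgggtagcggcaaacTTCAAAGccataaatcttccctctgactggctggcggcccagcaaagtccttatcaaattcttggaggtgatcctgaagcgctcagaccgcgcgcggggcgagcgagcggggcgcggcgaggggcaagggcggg
RNF43, chr17:58417485-58417784, minus strand: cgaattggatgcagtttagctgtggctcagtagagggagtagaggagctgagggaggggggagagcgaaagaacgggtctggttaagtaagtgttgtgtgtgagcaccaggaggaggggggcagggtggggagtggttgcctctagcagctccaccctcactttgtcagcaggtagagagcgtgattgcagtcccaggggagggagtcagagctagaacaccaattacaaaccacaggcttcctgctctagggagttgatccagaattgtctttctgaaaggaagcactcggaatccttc
LGR4, chr11:27472741-27473040, minus strand: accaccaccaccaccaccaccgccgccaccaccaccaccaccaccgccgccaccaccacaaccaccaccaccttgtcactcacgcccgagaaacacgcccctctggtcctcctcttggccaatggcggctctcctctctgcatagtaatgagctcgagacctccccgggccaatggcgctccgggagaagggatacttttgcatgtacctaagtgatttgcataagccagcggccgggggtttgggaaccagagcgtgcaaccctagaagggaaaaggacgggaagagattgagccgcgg

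Levels can be compared between genes only per length. On the FPKM scale, the order in the libraries labelled knockout was LGR4 (24.6), RNF43 (12.9), AXIN2 (9.69), ZNRF3 (8.85), NKD1 (4.7), LGR5 (1.87), NOTUM (1.46), LEF1 (0.822), TCF7 (0.804) and SP5 (0.16). LEF1 and TCF7 did not differ beyond their spread there. In the libraries labelled control the order was LGR4 (30), ZNRF3 (3.92), NOTUM (3.35), AXIN2 (1.81), LEF1 (1.72), RNF43 (0.738), TCF7 (0.514), NKD1 (0.11), SP5 (0.0109) and LGR5 (0.00368). The values of ZNRF3 and NOTUM overlapped in that group, as did those of AXIN2 and LEF1 and those of SP5 and LGR5. Among all listed genes, mean FPKM put RNF43 at percentile 73.5 in knockout and 35.2 in control libraries, NKD1 at 53.9 in knockout and 25.1 in control libraries, and LGR4 at 84.8 in knockout and 87.1 in control libraries. For 7 of the 10 genes the recovered lengths agreed within 2% between the groups. The others were NKD1, whose length was 17416 bases in the knockout and 18833 in the control tables, TCF7 and LEF1. The control lengths of LGR5 and SP5 rest on 1 and 2 counts. The share over all genes given below was taken at 1% and cannot be set beside this count.

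**Figure D2:**
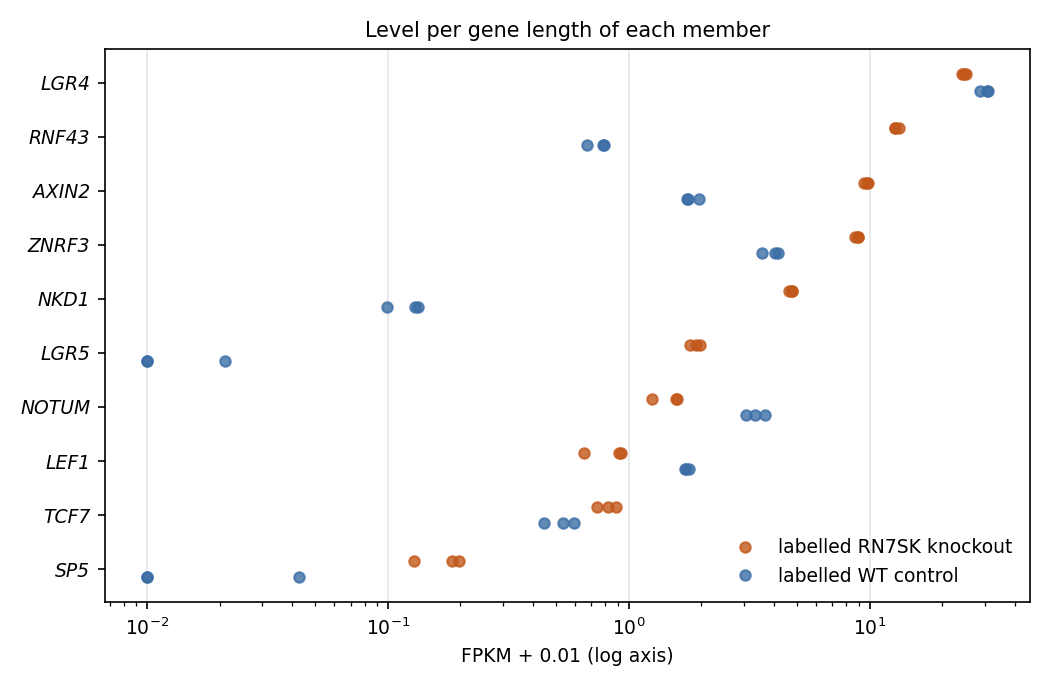
FPKM of each of the 10 genes in each library, with 0.01 added so that values of 0 can be drawn on the log axis. LGR4 was the highest gene in both groups (24.6 FPKM in knockout, 30 FPKM in control libraries), and the control values of LGR5 and SP5 lie at the left edge.

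Within families, the shares differed between the groups without overlap for all genes but TCF7. In CPM, 85.6% of all tested genes had no overlap, and in a pair each share fixes the other. As the members were chosen with their values known, nothing is read from this separation. The share of a gene does not depend on how libraries were scaled. It does depend on the gene lengths behind the FPKM, which differed between the groups for some genes, NKD1, TCF7 and LEF1 among them. RNF43 made up 58.8, 58.7 and 60.5% of the summed FPKM of RNF43 and ZNRF3 in knockout libraries and 15.6, 18 and 14.1% in control libraries. The pair's summed FPKM was 21.7 ± 0.113 in knockout and 4.66 ± 0.301 in control libraries (SD, n = 3 each). ZNRF3 was thus the main ligase mRNA in the control libraries and RNF43 in the knockout libraries. NKD1 and its paralog NKD2 exchanged places in the same way, with NKD1 at 85.5 ± 0.534% of their sum in knockout and 3.08 ± 0.63% in control libraries. AXIN2 held 42.6 ± 1.96% of the sum of AXIN2 and AXIN1 in knockout and 15.2 ± 1.16% in control libraries. LGR4 remained the main R-spondin receptor mRNA, at 91.3 ± 0.419% of the sum of LGR4, LGR5 and LGR6 in knockout and 99.9 ± 0.128% in control libraries. Among the DNA-binding factors, TCF7L2 held 73.8 ± 0.753% in knockout and 39.6 ± 3.01% in control libraries. LEF1 held 7.74 ± 1.51% in knockout and 22.8 ± 1.99% in control libraries, and TCF7 held 7.57 ± 0.59% in knockout and 6.75 ± 0.832% in control libraries, which overlapped.

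**Figure D3:**
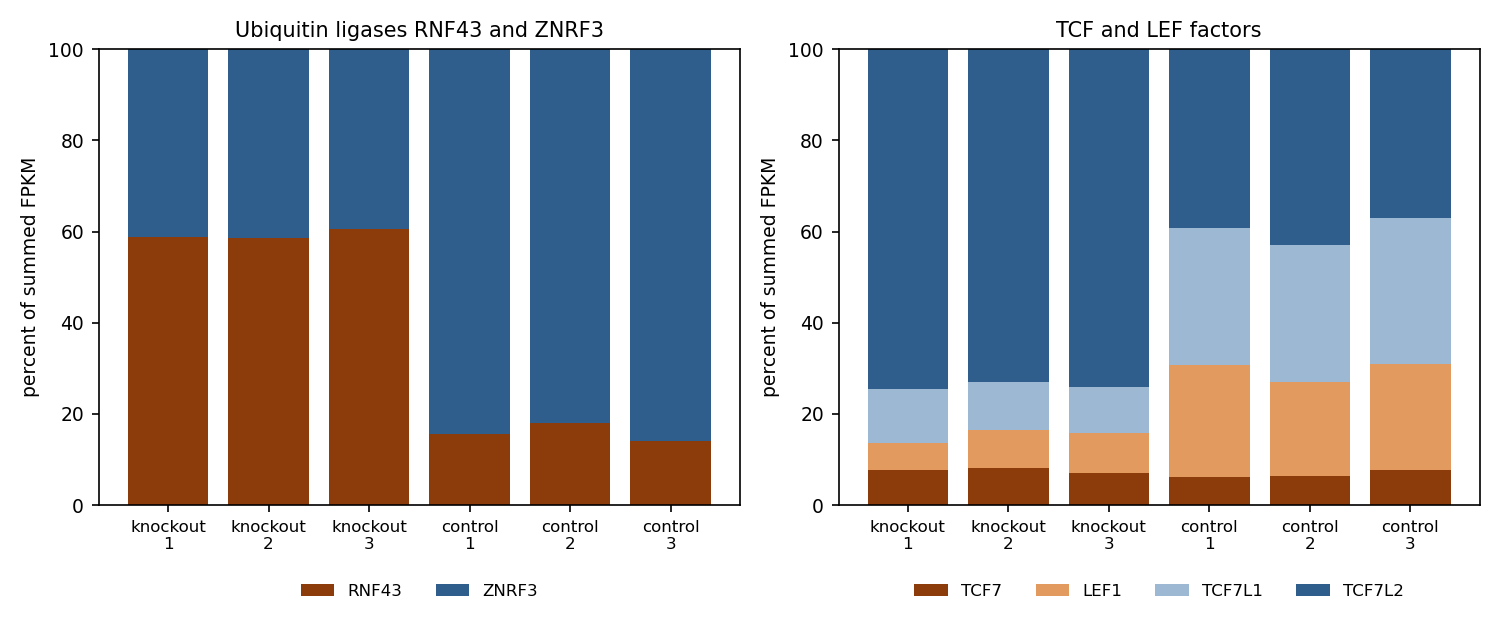
Share of the summed FPKM held by RNF43 and ZNRF3 (left) and by the TCF and LEF factors (right) in each of the 3 libraries labelled knockout and 3 labelled control. RNF43 took 58.7 to 60.5% in knockout and 14.1 to 18% in control libraries, and TCF7L2 took 73 to 74.5% in knockout and 37 to 42.9% in control libraries.

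The tested genes closest to NKD1, RNF43 and LGR5 were found by Euclidean distance in log2 CPM over the 6 libraries, a measure of level and of group difference together. Closest to NKD1 were MLXIPL (distance 1.26), HR (1.37) and SCNN1A (1.45). Close to RNF43 were IFITM10 (0.607) and RTN4RL2 (0.613), with means of 82.5 and 121 CPM in knockout and 6.53 and 5.85 CPM in control libraries. Closest to LGR5 were ZNF354C (0.476), DCHS2 (0.77) and CNRIP1 (1.15). None of these genes is on the Wnt lists used here. As those lists hold only 94 of the 12929 tested genes, nothing is read from this.

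**Figure D4:**
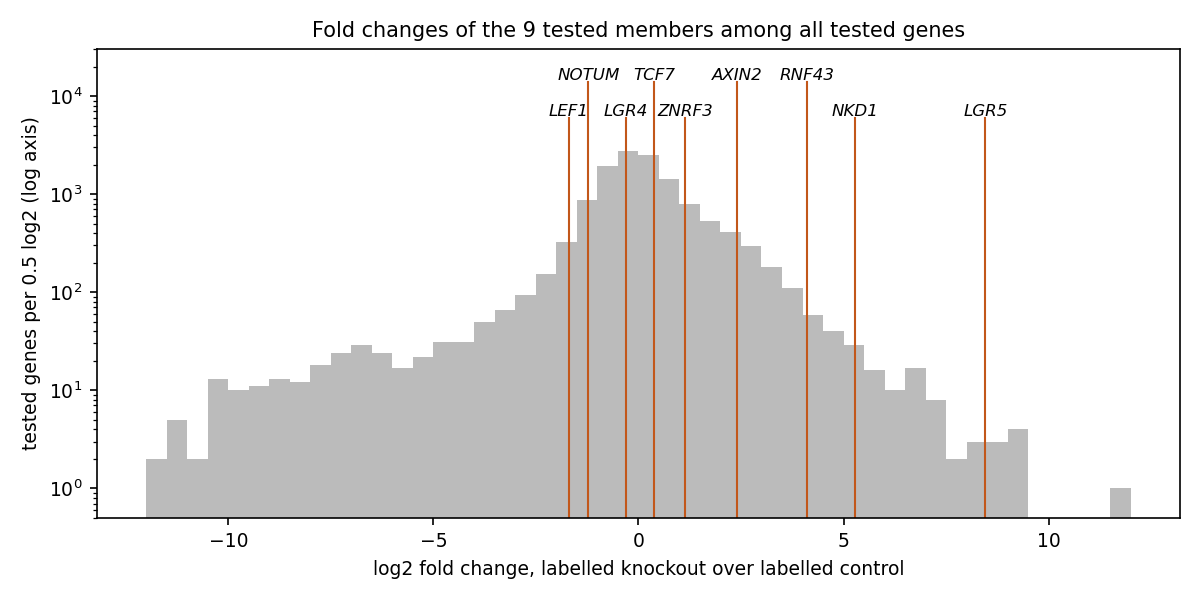
Number of the 12929 tested genes per 0.5 of log2 fold change (grey bars, log axis), with lines at the 9 fitted genes. LGR5 (8.46), NKD1 (5.27) and RNF43 (4.10) lie in the upper tail, while LGR4 (-0.31) and TCF7 (0.39) lie in the centre.

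Of 125 other Wnt pathway genes on 6 lists, 94 could be tested, of which 52 rose, 31 fell and 11 did not pass (edgeR adjusted p under 0.05). Of all tested genes 85% passed, 42% being higher and 43% lower, which is the background for each list below. The median log2 fold change of the 94 genes was 0.25, against -0.01 over all genes tested. Of 19 tested genes of the destruction complex and its regulators, 10 rose, 4 fell and 5 did not pass, with a median of 0.18. CTNNB1, which encodes beta-catenin, had 255 ± 9.22 CPM in knockout and 324 ± 5.02 CPM in control libraries (SD, n = 3 each), a log2 fold change of -0.34 (edgeR adjusted p = 4.96e-09). APC, the scaffold lost in many colon cancers, fell by 0.48 on the log2 scale, and AXIN1, the constitutive scaffold beside AXIN2, rose by 0.35. Among genes of this list that averaged 5 CPM or more, the larger changes were in APC2, a paralog of APC, which fell 5.3-fold, DVL2, a Dishevelled adaptor, which rose 2.87-fold, and TNKS, a tankyrase that marks axin for breakdown, which rose 2.06-fold. FRAT2, which binds GSK3, rose 1.87-fold. The edgeR adjusted p of these 7 genes was between 2.57e-22 and 1.61e-06.

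Of 18 tested nuclear effectors and cofactors, 8 rose, 5 fell and 5 did not pass, with a median of 0.10. TCF7L2 rose to 41.8 ± 0.773 CPM in knockout libraries, against 15.4 ± 2.33 CPM in control libraries, while TCF7L1, mostly a repressor, fell to 3.47 ± 0.315 CPM, against 7.04 ± 0.631 CPM in control libraries (SD, n = 3 each). The corepressor genes TLE1 and TLE2 went opposite ways, TLE1 up 3.03-fold and TLE2 down 2.76-fold. HBP1, an inhibitor of TCF factors, rose 2.35-fold. The edgeR adjusted p of these 5 genes was between 1.44e-24 and 2.98e-07.

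Of 17 tested receptor and R-spondin genes, 12 rose, 4 fell and 1 did not pass, with a median of 0.59. Of 9 tested Frizzled genes, 7 rose, FZD6 fell and FZD4 did not pass, against 42% higher and 43% lower of all tested genes. FZD7, FZD2 and FZD1 rose 7.48-fold, 6.07-fold and 4.37-fold, and per length FZD1 had 6.13 FPKM in knockout and 2.18 FPKM in control libraries. The co-receptor genes LRP5 and LRP6 rose 1.99-fold and 1.51-fold. RSPO3, the R-spondin ligand gene with the most counts, rose to 139.8 ± 0.584 CPM in knockout libraries, against 33.9 ± 2.09 CPM in control libraries (SD, n = 3 each). Per length RSPO3 had 46.2 FPKM in knockout and 6.09 FPKM in control libraries, with recovered lengths of 3001 bases in the knockout and 5423 in the control tables. PTK7, a co-receptor of planar polarity signalling, fell 15.3-fold. The edgeR adjusted p of these 7 genes was between 3.47e-27 and 6.38e-12. FZD6, named after its values were seen, had 42.4 ± 0.83 CPM in knockout and 80.7 ± 1.04 CPM in control libraries (SD, n = 3 each; edgeR adjusted p = 7.68e-17). LGR6, also named after its values were seen, as the third R-spondin receptor, had 66, 53 and 44 counts in knockout and 9, 1 and 0 counts in control libraries, a scaled ratio of 17.9 (95% exact counting interval 9.5 to 38.1, counting error only). Of the 10 control counts 9 are in control replicate 1, and without that library the ratio was 121 (95% exact counting interval 21.4 to 4799.7).

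Of 12 tested ligand and ligand secretion genes, 7 rose and 5 fell, with a median of 0.36. WNT7B rose to 131 ± 5.13 CPM in knockout libraries, against 38.7 ± 1.44 CPM in control libraries, and WNT3 rose 2.09-fold. WNT5B, a ligand that mostly acts without beta-catenin, fell 87-fold and WNT9A fell 2.28-fold. Of 11 tested secreted and membrane antagonists, 5 rose and 6 fell, with a median of -0.79. SFRP1, which binds Wnt proteins outside the cell, rose 7.96-fold, and DKK3, KREMEN2 and NKD2 fell 3.5-fold, 3.13-fold and 4.54-fold. NKD2 thus fell where its paralog NKD1 was higher, with 2.42 ± 0.0792 CPM in knockout and 11 ± 0.62 CPM in control libraries (SD, n = 3 each). The edgeR adjusted p of these 8 genes was between 1.66e-32 and 8.29e-11.

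Of 17 tested genes on a list of other reported Wnt targets, 10 rose and 7 fell, with a median of 2.17. That median lies at the edge of a gap, as the next lower value was 0.44 (MYC). The well-known targets CCND1, SOX9 and MYC did not share a direction. CCND1, which encodes cyclin D1, had 281 ± 5.3 CPM in knockout and 546 ± 11.7 CPM in control libraries, and SOX9, a progenitor transcription factor gene, fell 1.68-fold, while MYC rose 1.35-fold. NRCAM and L1CAM, which encode related cell adhesion proteins, went opposite ways. NRCAM rose 11.6-fold and L1CAM fell 16-fold. BMP4 and MSX2, a signalling ligand gene and a homeobox gene, rose 6.25-fold and 5.68-fold. The edgeR adjusted p of these 7 genes was between 2.28e-33 and 4.85e-11. ASCL2, a partner of LGR5 in intestinal stem cells, had 3, 3 and 6 counts in knockout and 0 in each control library and was not tested.

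**Figure D5:**
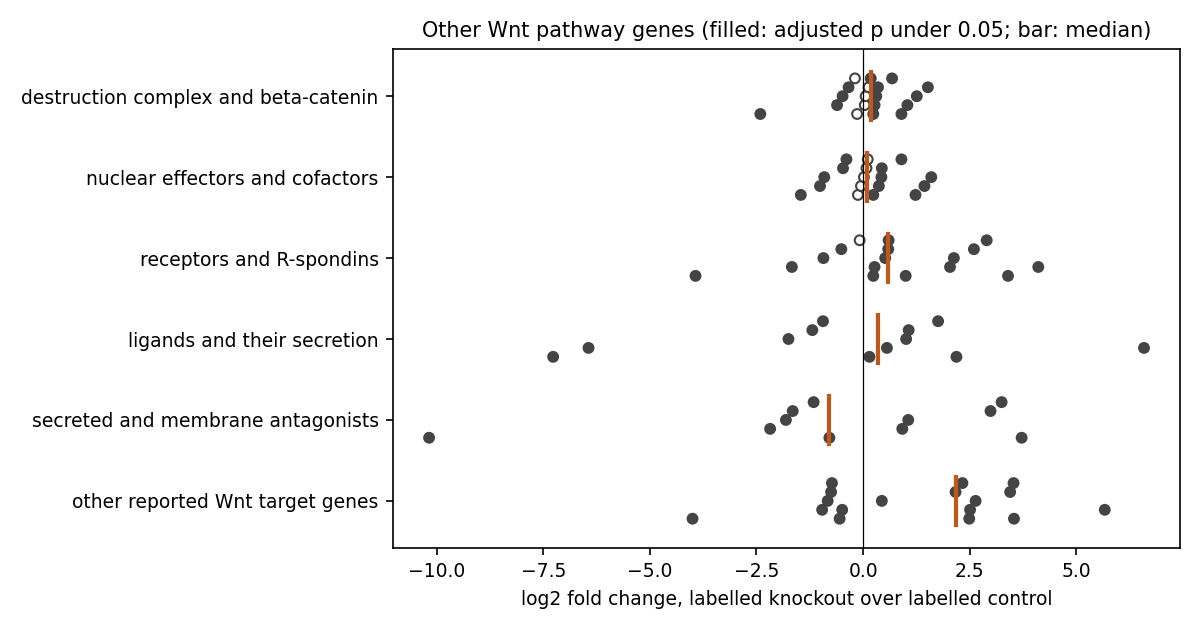
Log2 fold change, knockout over control, of the 94 tested genes on the 6 lists of other Wnt pathway genes, as filled points where the edgeR adjusted p was under 0.05 and open points where it was not. The bars mark the median of each list, 0.59 for receptors and R-spondins and 2.17 for other reported targets, and genes of each list lie on both sides of 0.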

How the data were processed

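Total RNA (TRIzol) went into an mRNA library kit, per the labels' protocols. GRCh38, HISAT2 2.2.1.0, Trimmomatic 0.36 and FastQC 0.11.5 are listed without roles, per the submitters' processing notes. How reads were assigned to genes, and whether by strand, is not given in the sources used here. Paralogs and overlapping genes may share reads.

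Per library, the authors deposited whole-number read counts and FPKM per gene symbol. Counts were used for folds and tests, and the deposited FPKM for levels per length. Dividing counts by FPKM recovered whole-number gene lengths (within 0.02 bases, counts of at least 10), once the total behind the FPKM was taken as 1.016 to 1.018 times the listed total. Lengths agreed within 1% between the groups for 32.3% of 14582 genes.

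In R 4.3.3 with edgeR 4.0.16, genes passing filterByExpr were scaled by TMM (factors 0.989 to 1.02) and the groups were set against each other in a robust quasi-likelihood fit (glmQLFit, glmQLFTest). Two-sided p-values were adjusted over 12929 genes (Benjamini-Hochberg, threshold 0.05). Libraries of a group differed by more than sampling noise (1.74 to 8.3, chi-square per degree of freedom). In a simulation, 200 of 12929 genes were changed. Of those changed by a log2 fold change of 1, 95.5% were called, and 2.55% of calls were false. The setting differs from the data, in which 85% of tested genes were called, so these rates may not hold for them. Alternatives used DESeq2 1.42.0 and limma 3.58.1.

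The members and lists were chosen with earlier results of these data known. Named pathway genes were up to 4 per list with the largest absolute log2 fold change among those called that averaged 5 CPM or more, and 12 core genes set by name. Some genes that the rules name are not reported. Coordinates are from RefSeq (GRCh38.p14).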

Additional observations from a re-analysis of the deposited data

How the results depend on the processing

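The direction of the 10 genes is fixed by groups that do not overlap and says nothing about stability. There were 17 other settings: other scalings, no low-count filter or a mean of at least 10 CPM, DESeq2, limma-voom, limma on log2(FPKM + 0.1) and on log2(FPKM + 1), the replicate block, leaving out each library, and a threshold of 0.01. Over those, 8349 to 11732 genes were called, against 10992, and 43 to 60 of the other Wnt pathway genes rose and 21 to 34 fell, against 52 and 31. The lowest counts were with a mean of at least 10 CPM, which tests fewer genes (69 of the pathway genes). The named pathway genes kept their direction and their call in all settings where they were fitted. Many of them were picked for the largest changes among the called genes of the main fit. For those this outcome was largely fixed in advance and says little about stability. Scaling moved the median of all genes by at most 0.09 (log2, upper quartile), and LGR4 had a log2 fold change of -0.22 there. On log2(FPKM + 0.1) LEF1 had -1.0, and on log2(FPKM + 1) it had -0.58 and NOTUM -0.82. Pairing was checked once: deviations of same-numbered libraries had correlations of 0.018, -0.0248 and -0.00775, so no shared effect of the replicate number was seen. Whether same-numbered libraries were handled together is not given by the labels. With the replicate block 10910 genes were called. The ratios of LGR5, SP5 and LGR6 without 1 control library were added after seeing the data. Depth limits SP5, and the control level of LGR5, to a few counts.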
